A study of Mus musculus with 36 samples.

Results

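The right lungs of 3 month old mice were profiled 3 days after pneumonectomy (PNX), an operation in which the left lung is excised, and were set against the left lungs taken from the same mice at surgery. The 3 post-PNX arrays of this age and day and the 3 control arrays of the same biological replicates were chosen by their labels, which gives 6 of the 36 arrays of the series. All mice were female C57BL6, and the labels name no genetic change. The control group held left lungs removed at day 0 from mice aged 3 months, and the post-PNX group held the right lungs of those mice on day 3. Each array held pooled RNA of 2 mice, and the same mice made up the left and the right sample of a pool. The pools carry the replicate numbers 7, 8 and 9. For comparison, the response was also taken in 3 month mice on day 1 (pools 1 to 3) and day 7 (pools 13 to 15) and in 9 month mice on day 3 (pools 10 to 12), each against their own left lungs. By the study's methods every mouse was anaesthetised, ventilated and given ampicillin before the left lung was excised, and received buprenorphine after surgery, before the right lung was taken. The right lungs were removed en bloc after the trachea had been cannulated. No array of a sham-operated mouse was analysed here, so that surgery, drugs and lung side differ between the groups together with PNX.

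After loss of lung tissue the remaining lobes of an adult rodent enlarge. Cells of the alveolar wall re-enter the cell cycle, fibroblasts lay down collagen and elastin for new septa, and monocytes and macrophages are recruited into the tissue. Mitosis genes are transcribed late in the cell cycle, so that their RNA in whole tissue follows the share of dividing cells. In whole lungs, fewer cells of a type and less RNA per cell cannot be told apart.

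Expression was read from Illumina MouseWG-6 v2 BeadChips, and a level is given here as the log2 of the normalized intensity of a gene's probe. Left and right lungs of a day were on separate chips, so that the effect of PNX cannot be told apart from those of chip and lung side. On the 6 arrays, 45.6% to 48.1% of probes were detected over background, and the 75th percentile of intensity was 170 to 254 in left and 255 to 392 in right lungs. With 3 pools, precision is limited by the number of arrays. The log2 change of a pool is its right lung level minus its left lung level, and a gene was called at an adjusted p under 0.05 (limma, Benjamini-Hochberg) with a change of at least 1.5-fold. Of 11833 genes tested, 850 (7.18%) were higher and 878 (7.42%) were lower in right lungs. This balance depended on the scaling, with 776 higher and 1149 lower when arrays were scaled to their 75th percentile and 544 against 428 with the authors' log2 values. Of the 1728 genes, 1705 moved the same way in all 3 pools. The changes upward were larger: 303 genes were more than 2-fold higher and 109 more than 2-fold lower, and 67 against 2 passed 4-fold. The median over all genes tested was −0.06. Without the pairing of left and right lungs in pools (no replicate block) 1738 genes were called, of which 1705 were the same.

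**Figure D1:**
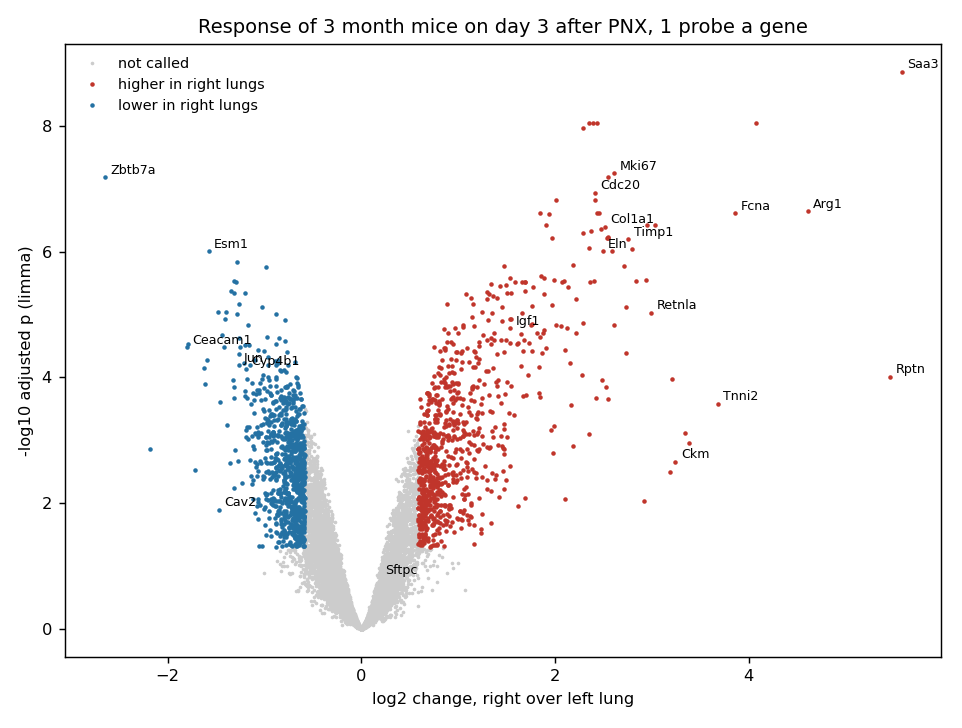
Log2 change (x axis, right over left lung, mean of 3 pools) against the −log10 of the adjusted p from limma (y axis) for the 11833 genes tested in 3 month mice on day 3 after PNX. The 850 genes called higher (red) reach a log2 change of 5.58 (Saa3), while the 878 called lower (blue) reach −2.65 (Zbtb7a).

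Pool 7 stood apart from pools 8 and 9. Over the 15795 probes that every array detected, the changes of pools 8 and 9 correlated at r = 0.75. Those of pools 7 and 8 correlated at 0.56 and those of pools 7 and 9 at 0.54. The right lungs of pool 7 correlated at 0.97 and 0.98 with those of pools 8 and 9, which correlated at 0.99 with each other. Left lungs correlated at 0.99 in each pair. Probes are not independent replicates, and these values are descriptions. Without pool 7, 1640 genes were called, of which 1255 were among the 1728.

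The right lungs also held transcripts that lung tissue is not known for. Lor (loricrin) and Krt13, a keratin of stratified squamous epithelium such as that lining the oesophagus, were detected in all 3 right lungs and in no left lung of these pools. In pools 7, 8 and 9 the log2 level of Krt13 was 4.73, 5.05 and 5.08 in left lungs and 14.29, 12.42 and 13.93 in right lungs, at least 252-fold higher. That of Lor was at least 335-fold higher, with right lung levels of 14.97, 12.49 and 14.42. These bounds set the right lungs against the dimmest probes detected on the left lung arrays. Krtdap, Lce3f, Crct1, Defb4, Krt4 and Lce3c followed, at least 159, 112, 103, 84.4, 80.5 and 75.2-fold higher. Of the 30789 symbols on the array, 249 were detected in all 3 right lungs and in no left lung, and 102 the other way round. Among the 102, Omd, an extracellular matrix protein of bone, was at least 2.09-fold lower and Nedd4b, Dnd1, Cib3 and Cd160 at least 1.94, 1.87, 1.83 and 1.60-fold lower.

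Of the squamous genes tested, Rptn (repetin, of the cornified envelope) was 44.0-fold higher, with changes of 6.59, 3.64 and 6.15 in pools 7, 8 and 9. All 5 tested genes of a squamous list that was written after the values had been seen were called higher, with a median change of 2.73, and 9 more of its 19 genes were detected in right lungs only. Of 9 skeletal muscle genes tested 7 were higher, with a median of 2.43 over the genes and of 2.83, 0.98 and 2.79 in pools 7, 8 and 9. They include Tnni2 (fast troponin I, 3.68), Mylpf (fast myosin light chain, 3.38), Ckm (muscle creatine kinase, 3.24) and Atp2a1 (the calcium pump of fast muscle, 3.18). The levels of Atp2a1 overlapped between left and right lungs, since pool 7 was high in the left lung already (10.00). Without pools 7, 8 and 9 in turn, 5, 8 and 5 of the 9 were called. Myl3, a light chain of slow and heart muscle, changed by 2.92, and by 2.12 without pool 7, where it was not called. Of 12 heart genes tested 3 were higher and 1 was lower, and without pools 7 and 9 in turn 0 and 1 were higher. The defining heart genes Myh6 and Myl7 had changes of −0.03 and 0.11 and were not called. Of 6 fat cell genes 3 were higher (2 without pool 8 or 9), among them Adipoq (adiponectin, 2.18), and 1 was lower. Of 9 mesothelial genes 4 were higher (7 without pool 9), among them Msln (mesothelin, 2.80), Muc16 (2.29) and Upk3b (1.65).

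These levels differed between cohorts. Krt13 reached 14.20 to 14.32 in right lungs of 3 month mice on day 1 and 13.56 to 14.30 on day 7. In the right lungs of 9 month mice on day 3 it was 7.33, 4.93 and 12.89 in pools 10, 11 and 12, and it was detected in 2 of the 3. The part of these tissues in the changes of other genes was not tested. Among pools 7, 8 and 9 the squamous and muscle list medians were lowest in pool 8. Its right lung still held Krt13 at 12.42, and Ucp1, of fat, was highest there (8.44). The values that follow are descriptions. The median change of 11 mitosis genes was 2.73, 2.55 and 2.01 in pools 7, 8 and 9, and 1.90, 2.81 and 3.47 in the 9 month pools. In pools 10, 11 and 12 the skeletal muscle list stood at −0.60, −0.18 and 2.17 and the squamous list at 1.13, 0.71 and 2.12. The keratin Krt14 was detected in all 3 of their right lungs (7.28, 7.19 and 9.33), so that other tissue was not absent from them. The median change of 11 collagens was 1.19, 1.13 and 1.18 in the 3 month pools and 1.01, 1.36 and 1.60 in the 9 month pools.

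**Figure D2:**
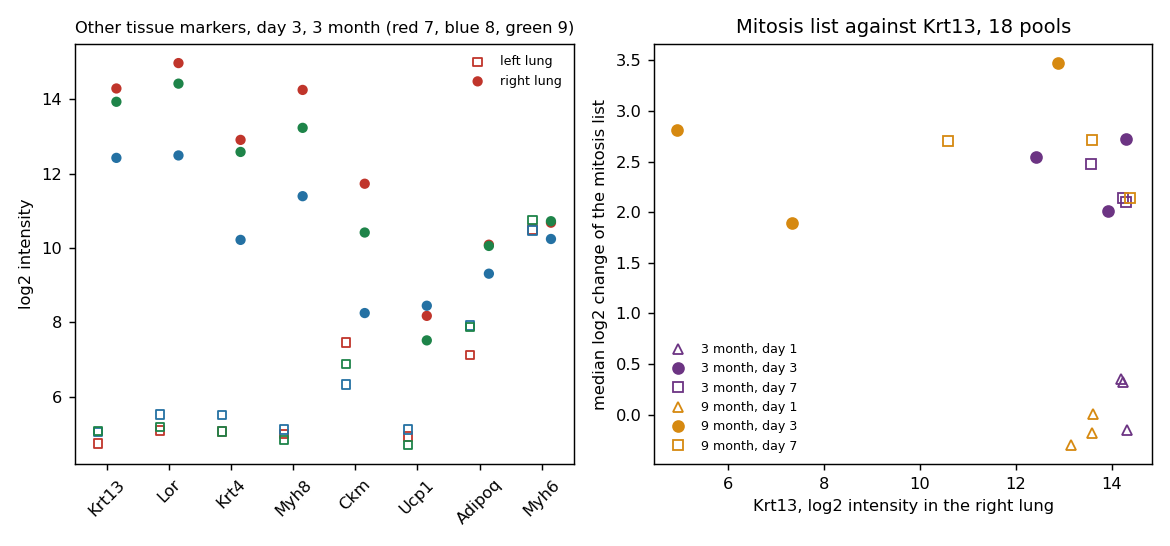
Left panel, log2 intensity of 8 genes of squamous epithelium (Krt13, Lor, Krt4), skeletal muscle (Myh8, Ckm), fat (Ucp1, Adipoq) and heart (Myh6) in left lungs (open squares) and right lungs (filled circles) of pools 7 (red), 8 (blue) and 9 (green); Krt13 lies between 4.73 and 5.08 on the left and at 12.42 or more on the right, while Myh6 overlaps. Right panel, median log2 change of 11 mitosis genes (y axis) against the log2 intensity of Krt13 in the right lung (x axis) for all 18 pools, with age by colour and day by symbol; the day 3 pools lie between 1.90 and 3.47 on the y axis and between 4.93 and 14.29 on the x axis.

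Genes of cell division rose in every pool. Of 11 mitosis genes tested, all 11 were called higher (median 2.41), where 7.18% of all genes tested were, and all 11 were also called with each of the pools left out. Mki67, the proliferation marker Ki67, had log2 levels of 7.29, 7.90 and 7.79 in left lungs and 10.16, 10.57 and 10.07 in right lungs of pools 7, 8 and 9. No left lung reached any right lung, and the change was 2.61 (SE 0.17, n = 3 pools, 6.11-fold, adjusted p = 5.74e-08 from limma). Birc5 (survivin, a subunit of the chromosomal passenger complex that guides chromosome segregation) went from 7.43, 7.63 and 7.69 to 10.11, 10.41 and 9.88, a change of 2.55 (SE 0.17, adjusted p = 6.58e-08). Cdc20, an activator of the ubiquitin ligase that starts anaphase, went from 8.52, 8.73 and 8.70 to 11.28, 11.18 and 10.70, a change of 2.41 (SE 0.17, adjusted p = 1.17e-07). Its other 2 probes gave 3.02 and 2.67.

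The other members named here span the stages of mitosis. Cdc2a (Cdk1, the kinase that drives entry into mitosis) changed by 2.71, Top2a, which untangles sister chromatids, by 2.59, and Prc1, which bundles the midzone of the spindle, by 2.55. Plk1, a mitotic kinase that is not among the 6 of smallest p in the list, changed by 2.41. Among genes outside the list, Pbk, a mitotic kinase, changed by 3.03 (8.19-fold, SE 0.24), Cdca3, a trigger of mitotic entry, by 2.95, and Cdkn3, a phosphatase that acts on cyclin-dependent kinases, by 2.94. Foxm1, a transcription factor that drives late cell cycle genes, changed by 1.84, and Spag5 and Kif23, of the spindle and of cytokinesis, by 2.48 and 2.01. Further cell cycle genes were detected in no left lung and in all right lungs: Iqgap3 was at least 8.59-fold higher, Cdca5 4.81-fold, Esco2 4.30-fold, Aspm 2.97-fold and Tpx2 2.93-fold. Of the 23 mitosis genes listed, 1 (Tpx2) was detected in right lungs only, 5 on some arrays and 6 in neither group.

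Cell cycle genes of this class are known to carry a CCAAT box and, near their start, the cell cycle genes homology region. To show them, the 4 tested mitosis genes with the smallest p are given with the promoter from RefSeq (mouse GRCm38.p6, 250 bases before to 50 after the start). Capitals mark TTTGAA (the core of the homology region) and CCAAT, searched on both strands, where the reverse reads TTCAAA and ATTGG. Mki67 lies at chr7:135716330-135716629 (minus strand), Cdc20 at chr4:118437294-118437593 (minus strand), Prc1 at chr7:80294201-80294500 (plus strand) and Birc5 at chr11:117848987-117849286 (plus strand).
Mki67: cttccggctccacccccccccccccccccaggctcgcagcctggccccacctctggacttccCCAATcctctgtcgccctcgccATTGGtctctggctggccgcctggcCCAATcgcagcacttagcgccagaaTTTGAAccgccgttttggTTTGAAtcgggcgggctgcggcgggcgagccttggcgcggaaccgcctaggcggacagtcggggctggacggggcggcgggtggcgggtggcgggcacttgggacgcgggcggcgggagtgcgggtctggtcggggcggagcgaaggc
Cdc20: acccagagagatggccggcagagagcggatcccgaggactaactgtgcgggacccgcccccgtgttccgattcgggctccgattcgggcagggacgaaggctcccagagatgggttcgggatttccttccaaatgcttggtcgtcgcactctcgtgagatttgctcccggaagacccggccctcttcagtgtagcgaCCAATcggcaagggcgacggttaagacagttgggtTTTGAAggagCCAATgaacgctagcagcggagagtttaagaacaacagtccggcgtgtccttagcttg
Prc1: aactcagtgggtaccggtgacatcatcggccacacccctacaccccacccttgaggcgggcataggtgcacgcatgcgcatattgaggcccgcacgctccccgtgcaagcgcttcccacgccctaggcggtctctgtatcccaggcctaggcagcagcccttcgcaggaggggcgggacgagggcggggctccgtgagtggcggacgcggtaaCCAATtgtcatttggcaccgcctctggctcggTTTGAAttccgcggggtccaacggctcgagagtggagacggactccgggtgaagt
Birc5: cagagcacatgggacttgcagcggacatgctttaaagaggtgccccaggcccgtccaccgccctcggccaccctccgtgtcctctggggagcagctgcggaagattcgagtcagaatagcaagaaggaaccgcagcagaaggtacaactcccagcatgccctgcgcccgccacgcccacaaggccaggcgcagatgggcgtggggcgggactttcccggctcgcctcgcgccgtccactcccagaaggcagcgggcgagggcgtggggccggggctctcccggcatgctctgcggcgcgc

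On the strand shown, the motif TTTGAA or its reverse begins nearest to the start at position −5 in the Prc1 promoter, −18 in that of Cdc20 and −98 in that of Mki67. The Birc5 window holds neither motif, which says only that these letters are not in this window. Windows were found for 19 of the 23 mitosis genes of the list, tested or not. TTTGAA is in 14 of them (73.7%), against 18.1% of the 27025 windows of all genes and 11.5% of the 7839 of genes tested. CCAAT is in 17 (89.5%), against 37.9% in either set. Both motifs are in 14 windows (73.7%), against 7.12% and 4.67%. In the 598 windows of genes called higher the shares are 17.7% for TTTGAA, 40% for CCAAT and 9.7% for both. In the 545 of genes called lower they are 8.07%, 38.9% and 2.94%. For a gene with several starts the first window listed was used, and a match is a description of the sequence.

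Genes of DNA replication rose less than those of mitosis. Of 18 tested, 16 were higher (median 1.18), and 14 to 16 were with any pool left out. Tk1, thymidine kinase, which feeds thymidine into DNA synthesis, had levels of 6.94, 7.21 and 7.10 in left and 10.12, 9.94 and 9.71 in right lungs, a change of 2.84 (7.15-fold, SE 0.28). Uhrf1, which keeps DNA methylation through replication, changed by 2.01, Rrm1, a subunit of ribonucleotide reductase, by 1.34, and Mcm6, a subunit of the replicative helicase, by 1.30. Of 35 replication histone symbols, a set formed after the values had been seen, 14 were higher and 2 lower, with Hist1h2ah (H2A, 2.53) and Hist1h2ag (H2A, 2.44) at the top. Hist2h2aa1 (H2A) was lower (−0.79), and Hist2h2ac (H2A) was called in both directions by its probes (1.08 and −0.66), both named after their values were seen. The probes can pick up near-identical copies, so that single histone genes are uncertain. Of 13 cell cycle inhibitors and p53 targets, 1 was higher and 1 lower (3 lower without pool 7), against 7.18% and 7.42% of all genes tested. Ccng1 (cyclin G1) changed by 0.60, was not called without pool 9 (0.57), and gave 0.50, which was not called, and 0.91, which was, with its other probes. The stress protein Gadd45b changed by −0.59 and was not called without pool 8 (−0.53) or pool 9 (−0.42). Cdkn1a (p21, an inhibitor of cyclin-dependent kinases) gave 0.30 and was not called by its brightest probe, while its other 2 probes gave 0.87 and 0.84 and were called.

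**Figure D3:**
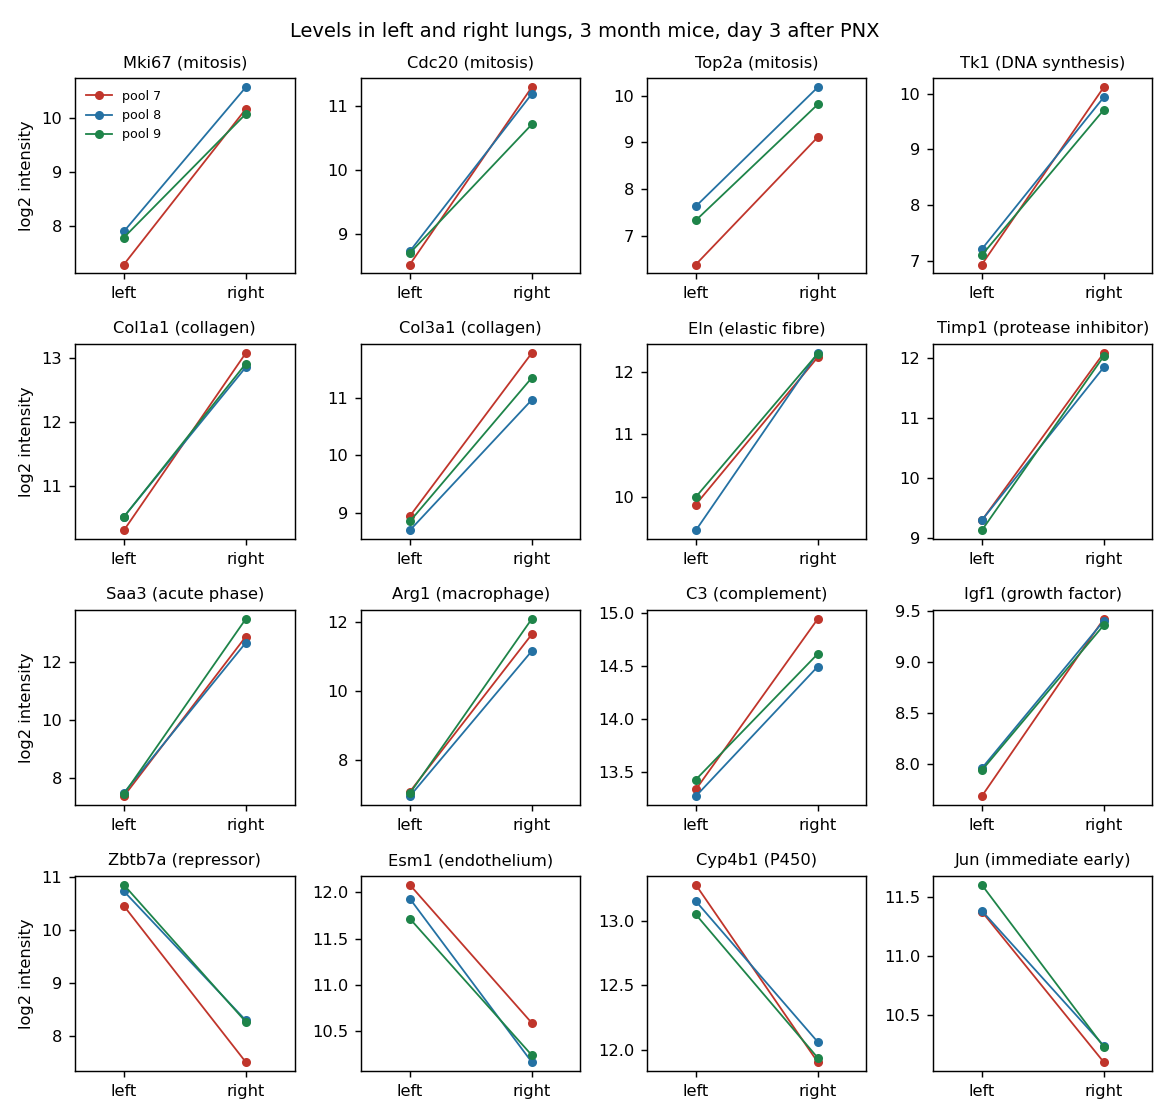
Log2 intensity of 16 genes in the left and right lung of pools 7, 8 and 9, with a line for each pool; each panel has its own y axis, since probes of different genes are not comparable in level. Mki67 rises from 7.29 to 7.90 in left lungs to 10.07 to 10.57 in right lungs, and Zbtb7a falls in every pool, by 2.65 on average.

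Genes of the fibrous matrix rose with them. Of 11 interstitial collagens tested 8 were higher and 0 lower (median 1.27), and 8 or 9 were higher with any pool left out. Col1a1, a chain of type I collagen, the main fibre of the septum, had levels of 10.30, 10.51 and 10.51 in left and 13.08, 12.86 and 12.92 in right lungs, a change of 2.51 (5.70-fold, SE 0.20, adjusted p = 4.03e-07 from limma). The left and right lungs did not overlap. Col3a1, of the fine type III fibres, went from 8.94, 8.69 and 8.84 to 11.79, 10.97 and 11.36, a change of 2.55 (SE 0.22). Col1a2 was 2.83-fold higher, and Col6a2, of the beaded filaments near cells, changed by 1.47, although its other probe gave 0.40 and was not called.

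Of 18 genes of elastic fibres and crosslinking 6 were higher. Eln, elastin, the core of the elastic fibre, went from 9.88, 9.47 and 10.00 to 12.23, 12.30 and 12.29, a change of 2.49 (5.63-fold, SE 0.22, adjusted p = 9.94e-07). The right lungs were close to each other. Fbn1, the microfibril on which elastin is laid, changed by 1.37, and Loxl1, a crosslinking enzyme of elastin, by 0.81. Lox, which crosslinks collagen and elastin, had levels of 10.62, 10.34 and 10.32 in left and 10.56, 10.90 and 11.27 in right lungs. The groups overlap, and its change of 0.48 was not called. Of 19 basement membrane genes 2 were higher (1 without pool 7 or 8), including Col15a1 (1.25), where 7.18% of all genes tested were. The median of the list was 0.20. Col4a4, a chain of type IV collagen, gave 0.41 and was not called by its brightest probe, while its other probe gave 1.32 and was called.

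Among 18 genes of matrix proteases and their inhibitors, 6 were higher and 0 lower. Timp1, an inhibitor of metalloproteases, went from 9.29, 9.29 and 9.13 to 12.09, 11.85 and 12.04, a change of 2.76 (6.75-fold, SE 0.23). Ctsk (cathepsin K, a collagen-degrading protease) changed by 1.45, and the metalloproteases Mmp14 and Mmp2 by 1.00 each. Mmp9, a gelatinase that neutrophils carry, changed by 0.90 (0.69 and not called without pool 7). Of 10 matricellular proteins 3 were higher and 1 lower. Tnc (tenascin C, made at sites of remodelling) changed by 2.35, with 2.02, 3.00 and 2.04 in pools 7, 8 and 9. Ctgf (connective tissue growth factor, a target of the mechanosensitive factor YAP) fell by 0.66, and it was not called without pool 7 (−0.65) or pool 8 (−0.56). Of 10 targets of YAP tested 0 were higher and 3 lower (2 without pool 7).

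Of 12 contractile genes 3 were higher, among them S100a4, a calcium-binding protein of fibroblasts and macrophages (1.11). Acta2, the smooth muscle actin of myofibroblasts, gave 0.23 and was not called, with levels of 13.78, 13.76 and 13.76 in left and 13.82, 13.99 and 14.18 in right lungs. Its other 3 probes gave −0.08, 0.42 and 0.02. Of 17 fibroblast genes 5 were higher (3 without pool 7) and 0 lower. Without pool 7 or pool 9, 1 was lower, as with arrays scaled to their 75th percentile. The list had a median of −0.01, with 8 positive and 9 negative changes. The genes higher include Lum (lumican, a collagen-binding proteoglycan, 1.41) and Npnt (nephronectin, an integrin ligand of the alveolar wall, 1.47). Npnt rested on pool 7, with changes of 2.55, 1.25 and 0.62, and gave 0.93 without it and was not called.

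Ligands and receptors moved in both directions. Of 26 growth factor genes for epithelium and vessels 3 were higher and 4 lower (7.18% and 7.42% of all genes tested). Igf1, insulin-like growth factor, had levels of 7.68, 7.96 and 7.94 in left and 9.43, 9.41 and 9.36 in right lungs, a change of 1.54 (2.91-fold, SE 0.18, adjusted p = 1.66e-05 from limma). Its receptor Igf1r gave −1.01 by its brightest probe, from 10.64, 10.65 and 10.72 to 9.47, 9.73 and 9.80, and −0.46 by another, which was not called. Igfbp3, a binding protein of IGF in plasma and tissue, changed by −1.24, −1.16 and −0.60 in pools 7, 8 and 9, and by −1.86 on average with its other probe. Angpt2, a ligand of the endothelial receptor Tek, changed by −0.83.

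In the Wnt pathway 3 of 15 genes were higher and 0 lower, against 7.18% and 7.42% of all genes tested. The list had a median of 0.15, with 9 positive and 6 negative changes. Sfrp1, a secreted inhibitor of Wnt ligands, went from 8.17, 8.23 and 8.21 to 10.62, 10.58 and 10.27, a change of 2.29 (4.88-fold, SE 0.13, adjusted p = 1.10e-08). No left lung reached a right lung. The ligand Wnt5a changed by 0.74. Of 15 ligands and receptors of the TGF-beta family 2 were higher (1 without pool 7) and 0 lower, against the same shares of all genes. The list had a median of −0.12, with 6 positive and 9 negative changes. Those higher were Fstl1, an extracellular antagonist of BMP, by 1.22 and Tgfb3 by 0.68 (0.55 and not called without pool 7). Tgfb1 gave 0.36 (adjusted p = 0.032), below 1.5-fold. Mdk, the heparin-binding growth factor midkine, changed by 0.76 with its brightest probe and by −0.01 with the other.

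Of 19 genes that the study names and that could be tested, 13 were higher (10 or 11 with a pool left out) and 0 lower. The list mixes genes that the study drew from these arrays with genes it followed in cultured fibroblasts, so that the count is not independent evidence. Beside those above, they include Retnla, Il1b, Fn1 and Tnfrsf12a. Fn1, fibronectin of the provisional matrix, changed by 0.99, with 0.22, 1.35 and 1.39 in pools 7, 8 and 9, and was not called without pool 8 (0.80) or pool 9 (0.79). Tnfrsf12a, the receptor of the cytokine TWEAK, changed by 0.91 and was not called without pool 8 (0.76) or pool 9 (0.88). Lox, Tgfb1, Cdkn1a, Acta2, the protease Adamts9 (0.21) and the peptidase Dpp4 (−0.01) were not called.

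Saa3 had the largest change of any gene tested. This acute phase protein of macrophages and epithelium had levels of 7.37, 7.48 and 7.44 in left and 12.88, 12.67 and 13.49 in right lungs, a change of 5.58 (47.8-fold, SE 0.25, adjusted p = 1.39e-09 from limma). Of 14 acute phase genes 4 were higher (2 without pool 9) and 1 lower, and the median of the list was 0.29. Among them Cp (ceruloplasmin) gave 0.62 by its brightest probe and −0.11 and −0.50 by its others, which were not called. The gene lower in the list was Il6ra, a chain of the interleukin 6 receptor (−0.93), whose other probe gave −0.49 and was not called.

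Genes of alternatively activated macrophages, which clear debris and feed repair, were higher in 10 of 15 cases and lower in 2 (1 without pool 9). Arg1 (arginase, which turns arginine towards polyamines and collagen) went from 7.08, 6.95 and 7.03 to 11.64, 11.16 and 12.09, a change of 4.61 (24.4-fold, SE 0.35). Retnla (Fizz1, a secreted protein induced by type 2 cytokines) went from 12.37, 12.61 and 11.98 to 15.38, 15.46 and 15.10, a change of 2.99 (7.97-fold, SE 0.33). F13a1, the transglutaminase of clotting and of resident macrophages, changed by 1.43 and Mrc1, the mannose receptor, by 0.79. Fcna, a ficolin of the lectin pathway of complement, was 14.6-fold higher (3.86, SE 0.30).

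Of 18 genes of monocytes and recruited macrophages 9 were higher and 0 lower, and 5 were without pool 8. Trem2, a lipid receptor of macrophages in damaged tissue, changed by 1.78 (SE 0.18). Of 10 alveolar macrophage genes 4 were higher, led by the scavenger receptor Marco (2.82-fold), and 0 lower. The list had a median of 0.10, with 5 positive and 5 negative changes. Its gene Ear2 gave −0.23 by the brightest probe, and −0.63 by another, which was called. Of 12 complement genes 9 were higher and 0 lower (median 1.23), and 9 were higher with each pool left out. Cfb, factor B of the alternative pathway, went from 7.72, 7.62 and 7.54 to 10.28, 9.75 and 10.16, a change of 2.43 (5.41-fold, SE 0.14, adjusted p = 9.19e-09). C1qc and C1qa, chains of the recognition protein of the classical pathway, changed by 1.59 and 1.45 and C3, on which the pathways meet, by 1.34.

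Of 10 neutrophil genes 7 were higher (5 without pool 7 or 8) and 0 lower (median 1.03). Clec4d, a lectin receptor, changed by 1.75, and S100a9 and S100a8, which together form calprotectin, by 1.48 and 1.38. S100a8 gave 1.13 without pool 8 and was not called there. All 8 platelet genes tested were higher (median 1.26), 5 of them without pool 9, and the list median was 0.96, 1.26 and 1.80 in pools 7, 8 and 9. Ppbp, a chemokine of platelet granules, changed by 1.84 and Itga2b, a chain of the fibrinogen receptor, by 1.45. The granule chemokine Cxcl4 (platelet factor 4), which was not counted among these 8 genes, changed by 1.61.

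Of 15 chemokines 5 were higher and 0 lower. Ccl9, which draws myeloid cells, went from 10.30, 10.10 and 10.12 to 12.39, 11.94 and 12.38, a change of 2.06 (SE 0.24). Cxcl13, which draws B cells, varied between pools, with changes of 0.80, 1.97 and 3.55, a mean of 2.11, and 1.39 and no call without pool 9. Cxcl1, which draws neutrophils, showed 1.08, 1.62 and 3.25. Il1b, the inflammatory cytokine interleukin 1 beta, changed by 1.13 and was not called without pool 8 (1.08) or pool 9 (0.85). Of 18 interferon response genes 1 was higher (0 without pool 7) and 0 lower, against 7.18% and 7.42% of all genes tested. It was Oasl2 (0.75, and −0.08 with its other probe). Of 10 genes of MHC class II 0 were called by their brightest probes. H2-Oa gave −0.45 by that probe, and −0.69 by its other probe, which was called.

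Of 15 T and NK cell genes 0 were higher and 5 lower (median −0.41), and 3, 2 and 3 were lower without pools 7, 8 and 9 in turn. Cd3e, a chain of the T cell receptor complex, went from 9.39, 9.68 and 9.57 to 8.74, 8.88 and 8.73, a change of −0.77 (SE 0.18). Klrd1, an NK cell receptor, changed by −0.88. Of 11 B cell genes 2 were higher (1, 1 and 0 without pools 7, 8 and 9) and 0 lower, against 7.18% and 7.42% of all genes tested.

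**Figure D4:**
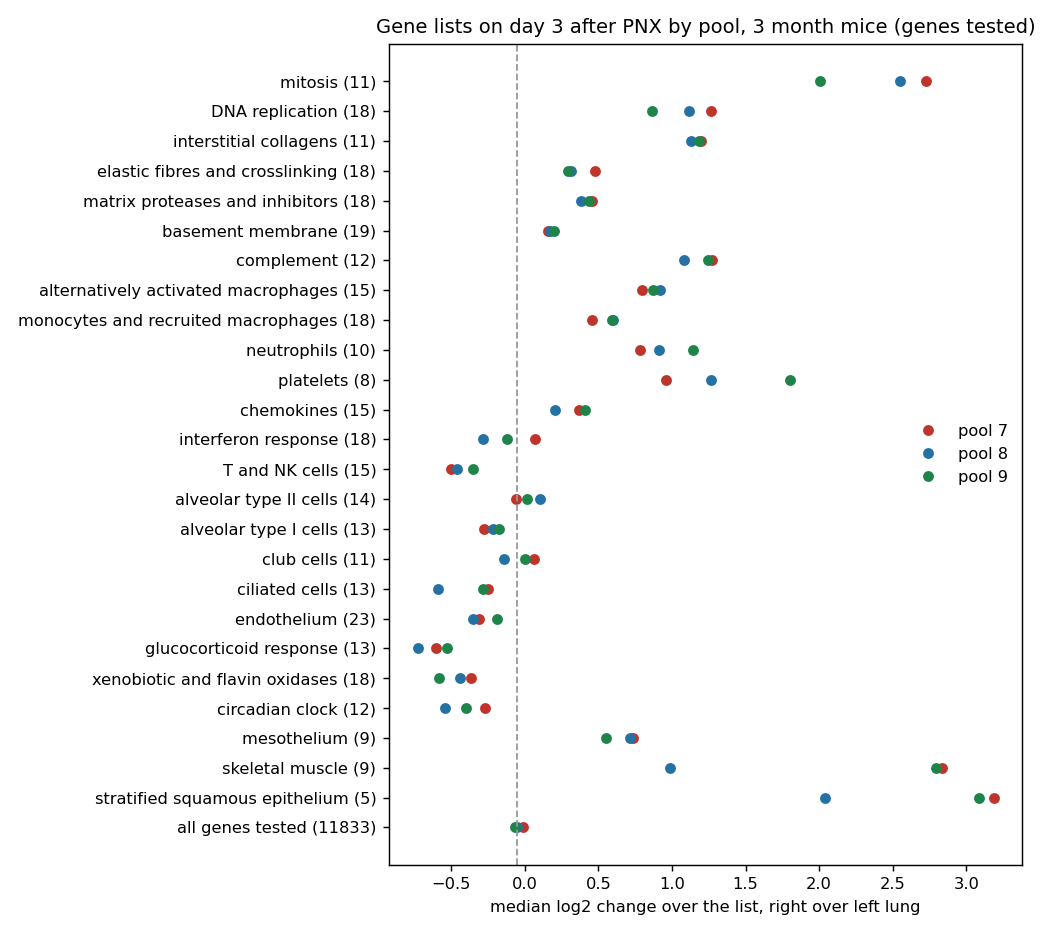
Median log2 change (x axis, right over left lung) of 25 gene lists and of all genes tested in pools 7 (red), 8 (blue) and 9 (green), with the number of genes tested in parentheses and the median over all genes as a dashed line at −0.06. Mitosis, DNA replication, collagens, complement and platelets lie at or above 0.87 in every pool, glucocorticoid response at or below −0.53, and skeletal muscle falls to 0.98 in pool 8.

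Among genes that were lower in right lungs, Zbtb7a changed most. This transcriptional repressor went from 10.46, 10.74 and 10.86 to 7.52, 8.30 and 8.28, a change of −2.65 (6.28-fold lower, SE 0.18, adjusted p = 6.58e-08 from limma). Ceacam1, an adhesion molecule of epithelium and vessels, changed by −1.80 (−0.78 with its other probe), and mt-Nd5, a mitochondrial subunit of respiratory complex I, by −1.71, with −0.82, −1.89 and −2.42 in pools 7, 8 and 9. Thsd4, a microfibril-associated protein, changed by −1.59 and Sepp1, the selenium carrier of plasma, by −1.45. Efcab1, Myrip (a link of secretory granules to myosin), Pdzd2, Gimap6 (a GTPase of lymphocytes), Faim2 and Decr1, a mitochondrial enzyme of fatty acid oxidation, lay between −1.63 and −1.33. Cav2, a protein of caveolae, had changes of −3.23, −0.71 and −0.46, a mean of −1.47, and −0.58 and no call without pool 7.

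Of 23 endothelial genes tested 0 were higher and 5 lower (median −0.35), and 21 had a negative change, as had 6624 of all 11833 genes. Tmem100, a membrane protein of endothelium, went from 14.39, 14.48 and 14.53 to 13.65, 13.63 and 13.60, a change of −0.84 (SE 0.11, adjusted p = 7.68e-05). Sox18, a transcription factor of vessels, changed by −0.76 and the guidance receptor Robo4 by −0.62. Pecam1, the endothelial adhesion molecule CD31, gave −0.72 by its brightest probe (−0.57 and not called without pool 7) and −0.06 by another. Esm1, a proteoglycan of endothelial tip cells that is not on the list, changed by −1.58 (SE 0.14), with levels of 12.08, 11.93 and 11.72 in left and 10.59, 10.17 and 10.24 in right lungs, and Kank3, an actin regulator of endothelium, by −1.35.

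Of 13 genes that glucocorticoids induce 0 were higher and 6 lower (median −0.76). Without pool 7, 4 were lower and the median was −0.50. Map3k6, a stress kinase, changed by −1.32, Klf9, a transcription factor, by −0.76, and Tsc22d3 (GILZ, which mediates anti-inflammatory effects) by −0.77, with no call without pool 8 (−0.69) or pool 9 (−0.71). Dusp1, a phosphatase of MAP kinases that is also an immediate early gene, changed by −1.07 and was not called without pool 7 (−0.73). Of 16 immediate early genes 0 were higher and 2 lower (1 without pool 7), against 7.18% and 7.42% of all genes tested. Jun, a subunit of AP-1, was among those lower. It went from 11.38, 11.39 and 11.61 to 10.10, 10.24 and 10.23, a change of −1.27 (SE 0.17). Ddit3 (CHOP), of the endoplasmic reticulum stress response, changed by −1.02. Of 12 clock genes 0 were higher and 1 lower (2 without pool 7), again against 7.18% and 7.42%. The time of day of tissue collection was not in the labels, and its part was not tested.

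Of 18 genes of xenobiotic metabolism 1 was higher (0 without pool 7, 2 without pool 8) and 8 lower (median −0.55), and 5 and 3 were lower without pools 8 and 9. Cyp4b1, a cytochrome P450 of club cells and endothelium, went from 13.28, 13.15 and 13.05 to 11.91, 12.06 and 11.94, a change of −1.19 (SE 0.16), and Fmo1, a flavin monooxygenase, changed by −0.96. Of 16 genes of hypoxia and glycolysis 3 were higher, among them Gapdh (0.83) and Ldha (0.81).

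Of 14 genes of alveolar type II cells and 11 of club cells 0 were called by their brightest probes. The club cell gene Scgb3a2 gave 0.26 by that probe, and −0.68 by its other probe, which was called. Of 13 of alveolar type I cells 1 was higher (0 without pool 7, 2 without pool 9) and 0 lower (1 without pool 8). Of all genes tested 7.18% were higher and 7.42% lower. The type I list had a median of −0.31, with −0.28, −0.22 and −0.18 in pools 7, 8 and 9, and 8 of its changes were negative. With arrays scaled to their 75th percentile, 4 club cell genes (median −0.40 against −0.03), 1 type II gene and 2 type I genes were lower and 0 higher. Sftpc, the surfactant protein that defines type II cells, had levels of 15.33, 15.35 and 15.26 in left and 15.57, 15.45 and 15.51 in right lungs, a change of 0.20, which turned to −0.29 when arrays were scaled to their 75th percentile. Sftpb gave 0.45 (0.02 with its other probe, and a called 0.59 without pool 9) and the lipid transporter Abca3 −0.19. Hopx, of type I cells, gave −0.51, and Scgb1a1, the main secretory protein of club cells, −0.41, below 1.5-fold, although their adjusted p was 0.003 and 0.00279 from limma. Of 13 genes of ciliated cells 1 was higher (2 without pool 9) and 4 lower, including Dnaic1 (−0.97) and Dnahc5 (−0.94), which are parts of the dynein arms that move cilia.

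The response was next set against that on day 1. Each day had its own mice and its own chips, so that in differences between days the day cannot be told apart from the chips. For a difference, a gene was called at an adjusted p under 0.05 with a response of at least 1.5-fold in at least 1 of the groups compared. Of the 11833 genes, 223 (1.88%) had a higher and 110 (0.93%) a lower log2 response on day 3 than on day 1. All 11 mitosis genes tested were among the higher ones. The response of Cdc20 was −0.19 on day 1 and 2.41 on day 3, a difference of 2.60 (adjusted p = 4e-05 from limma), and that of Mki67 was 0.53 and 2.61, a difference of 2.08 (adjusted p = 2.8e-04). Kif23, Spag5 and Ccno, a cyclin-like protein of multiciliated cells, differed by 2.28, 2.43 and 2.34. None of 18 DNA replication genes differed, with a median response of 0.75 on day 1 and 1.18 on day 3.

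Of 11 collagens 3 had a higher response on day 3 than on day 1, among them Col3a1 (by 1.42) and Col1a2 (by 1.17), and 1 a lower, Col8a1, which was named after its value was seen (its response was 0.09 on day 3). Eln differed by 1.64, Ctsk by 1.67 and Mmp2 by 1.00. Of 12 complement genes 5 had a higher response, with a median of 0.47 on day 1 and 1.23 on day 3. Trem2 differed by 1.22 and Fcna by 1.66. Cdh16, a cadherin of epithelium, had a response of −1.71 on day 1 and of −0.06 on day 3, which was not called, a difference of 1.65.

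A lower response on day 3 was found for Serpina3n, an acute phase protease inhibitor, which gave 2.46 on day 1 and 0.79 on day 3, a difference of −1.67 (adjusted p = 4.2e-04 from limma). Lcn2 (lipocalin 2, an iron-binding acute phase protein) gave 1.69 and 0.32, and Hyou1, a chaperone of the endoplasmic reticulum, 1.58 and −0.04. The vessel genes Gata2 and Pecam1 differed by −1.08 and −0.98, and Lphn3, an adhesion receptor, by −1.30. Another probe of Pecam1 gave −0.06 on day 3. Dusp23, a phosphatase, differed by −0.93, but its probes disagreed on day 3, at −0.11 and −1.01. Neutrophil genes had a median of 1.92 on day 1, 1.03 on day 3 and 0.12 on day 7, of which 0 of 10 had a higher and 1 a lower response on day 3 than on day 1. The response of Saa3 was 5.97 on day 1 and 5.58 on day 3, and the difference was not called. The count of 333 differences fell to 164, 176 and 270 without pools 7, 8 and 9, and to 177, 267 and 121 without the day 1 pools 1, 2 and 3.

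Day 3 and day 7 differed in 2 genes (0.0169%), Tor1aip1, a protein of the nuclear envelope (by 0.87), and Nudel-pending, a provisional symbol named after its value was seen (by 1.57), while 1676 genes had an unadjusted p under 0.05. The count was 150 without pool 7, which included both genes, and 0 without pools 8, 9, 13 or 14. Without pool 15 it was 3, with neither Tor1aip1 nor Nudel-pending among them. It was 483 with the mean of the 9 left lungs of the age as baseline. The mitosis list had a median of 2.41 on day 3 and 2.17 on day 7, and collagens 1.27 and 1.14. Between the ages on day 3, 2 genes (0.0169%) differed and 1153 had an unadjusted p under 0.05. The response of Chia, an acidic mammalian chitinase, was 1.04 in 3 month and −0.31 in 9 month mice, a difference of −1.34, and that of Alkbh8, a tRNA methyltransferase, was −0.69 and 0.50, a difference of 1.18. No gene was called without pools 7, 9 or 11. Without pool 8, 2 genes were called, neither of them Chia or Alkbh8. Without pool 10, 39 were called, both of these among them, and without pool 12, 6 were, with 1 of these. The mitosis list had a median of 2.41 in 3 month and 2.63 in 9 month mice, collagens 1.27 and 1.43, complement 1.23 and 0.86, and platelets 1.26 and 0.37. The 3 comparisons share the arrays of 3 month mice on day 3.

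**Figure D5:**
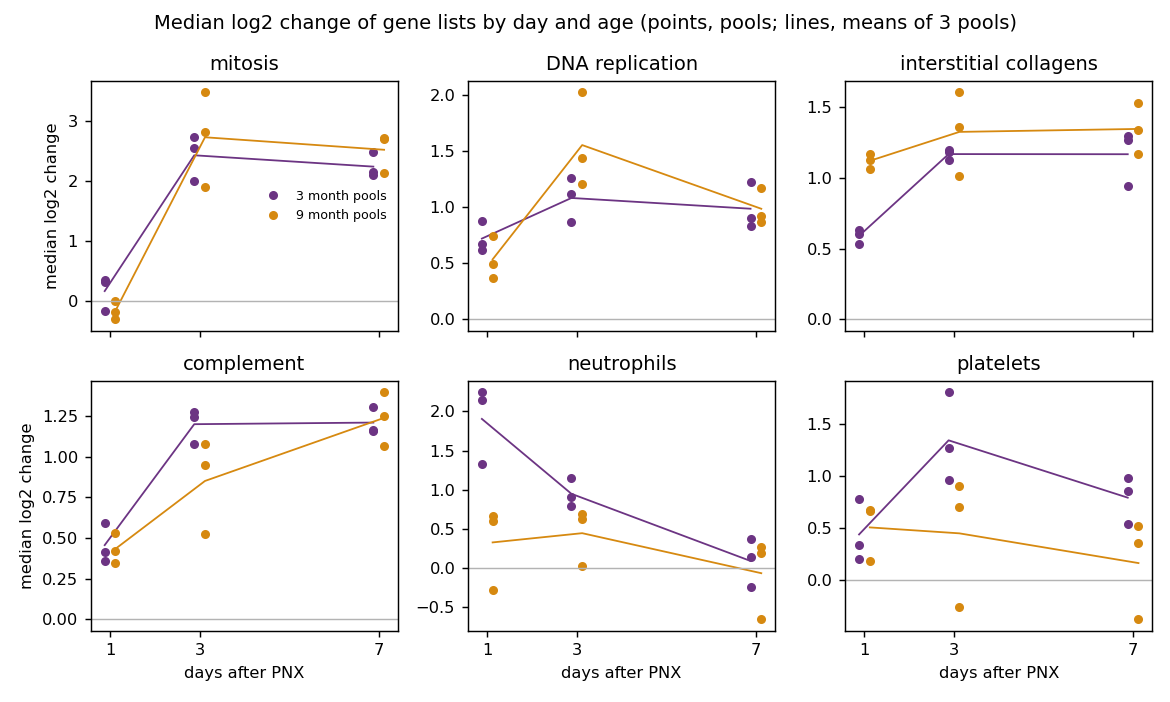
Median log2 change of 6 gene lists (y axis, right over left lung) by day after PNX (x axis) in 3 month (purple) and 9 month (orange) mice, with a point for each pool and lines through the means of 3 pools; each panel has its own y axis. In 3 month mice the mitosis median goes from 0.11 on day 1 to 2.41 on day 3 and 2.17 on day 7 over the genes' mean changes, and the neutrophil median from 1.92 to 1.03 and 0.12.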

How the data were processed

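RNA of right and left mouse lungs was hybridised to 36 Illumina MouseWG-6 v2 arrays on 6 chips. The intensity of each probe and its detection p-value were deposited by the authors, as was a table of log2 values, for which the labels name lumi, RMA and limma with no version. Intensities were background-corrected with normexp (offset 16, limma 3.58.1, R 4.3.3), quantile normalized and log2 transformed. The filter kept the 15795 of 45281 probes that every one of the 36 arrays detected (p under 0.05), which stand for 11833 genes. A gene stands by its kept probe with the highest mean. The right minus left log2 values of 18 pools were fitted with limma in 6 groups of day and age, which share the spread, with p-values adjusted by Benjamini-Hochberg over all kept probes. The same mice gave both lungs of a pool, and the deviations of these from the group means correlated at −0.28, 0.07 and −0.14. Pools are of separate mice by the labels.

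Genes were named by rule: the 15 largest changes per direction, in each list the up to 6 genes of smallest p, the genes the study names, the 6 genes per direction with the smallest p in each difference, and the 8 largest bounds per direction. The members and lists were chosen with earlier results of these data known. The tests were tried on simulated data. Alternatives covered background, scaling, detection filter, baseline, pairing, weights and each pool left out. Promoters come from RefSeq, and 21951 of 30789 symbols on the array matched it.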

Additional observations from a re-analysis of the deposited data

Results flagged for a closer look

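For the differences below, the responses of 2 groups differed by limma's test of the difference itself (adjusted p under 0.05, Benjamini-Hochberg). No explanation was tested for any of them, and in those between days the day cannot be told apart from the chips. The groups hold 3 pools each, so that single samples were not tested as outliers.

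In cell division, the log2 response of 3 month mice was higher on day 3 than on day 1 for Cdca3 by 2.73, Cdkn3 by 2.72, Cdc20 by 2.60, Plk1 by 2.46, Prc1 by 2.44, Spag5 by 2.43, Kif23 by 2.28, Mki67 by 2.08, Pbk by 2.06, Top2a by 1.89, Cdc2a by 1.72, Birc5 by 1.61 and Foxm1 by 1.57. The histones Hist1h2ag, Hist1h2ah and Hist2h2ac differed by 2.20, 1.35 and 0.88, and Ccno by 2.34. In the matrix, Ctsk differed by 1.67, Eln by 1.64, Col3a1 by 1.42, Col1a2 by 1.17 and Mmp2 by 1.00. Among immune genes Fcna differed by 1.66, Trem2 by 1.22, C1qa by 0.97 and Cfb by 0.74. Cdh16, Muc16, Sfrp1, Mdk and Chia differed by 1.65, 1.44, 1.24, 1.19 and 1.12. These values are those of the brightest probe, and on day 3 another probe gave −0.01 for Mdk and −0.66 for Hist2h2ac.

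The response was lower on day 3 than on day 1 for Serpina3n (−1.67), Hyou1 (−1.62), Lcn2 (−1.37), Lphn3 (−1.30), Myrip (−1.19), Cyp4b1 (−1.12), Gata2 (−1.08), Col8a1 (−1.08), Pecam1 (−0.98) and Dusp23 (−0.93). On day 3 the probes of Pecam1 (−0.72 and −0.06) and of Dusp23 (−0.11 and −1.01) disagreed. Against day 7, the day 3 response was higher for Nudel-pending by 1.57 and Tor1aip1 by 0.87. Neither difference was called without pool 8, 9, 13, 14 or 15. The day 3 response of 9 month mice differed from that of 3 month mice by 1.18 for Alkbh8 and by −1.34 for Chia. Neither of these was called without pool 7, 8, 9 or 11. Apart from the tested genes, 249 of the 30789 symbols on the array were detected in all 3 right lungs and in no left lung. The squamous and muscle transcripts among them reach right lung levels far over background.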

How the results depend on the processing

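The count of 1728 genes changed on day 3 was 1539 to 1640 with a pool left out, 1738 with no replicate block and 1300 to 2558 under the other settings, apart from 972 with the authors' log2 values and 3527 with no fold threshold. The cause of these moves was not tested, except that dropping a threshold admits more genes. The count of 333 differences from day 1 was 121 to 270 with a pool left out and 85 with only the pools of the comparison, where fewer arrays inform the spread.

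The count of 2 differences from day 7 was 0 to 150 with a pool left out. It was 25 with no background correction, 27 with offset 50, 32 with the authors' log2 values, 23 at a detection p under 0.01, 1 with detection on at least 3 arrays, 0 with only the pools of the comparison, 86 with no replicate block, 483 with the mean of the 9 left lungs of the age as baseline and 240 with array weights. The count of 2 between ages was 0 to 39 with a pool left out. It was 1 with no background correction, with offset 50, with the authors' log2 values and at a detection p under 0.01, 0 with no detection filter and with only the pools of the comparison, 6 with no replicate block, 119 with the mean baseline and 7 with array weights. The same mice gave both lungs of a pool, and leaving out this pairing changed no call among 148 named genes. The leave-outs of day 1, day 7 and 9 month pools were chosen after seeing the data.

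Among these, directions turned for genes that were not called and, by other probes, for the called genes Mdk (−0.0064), Cp (−0.11 and −0.50), Oasl2 (−0.082), Hist2h2ac (−0.66) and Hist2h2aa1 (0.0028). With the mean baseline, Cdkn1a gave −0.14, Hyou1 0.19, Dusp23 0.080 and Nudel-pending −0.15. With a pool of the day left out, Myh6 ranged from −0.13 to 0.072, Dpp4 from −0.017 to 0.0025, Hyou1 from −0.13 to 0.087, Myl7 from −0.20 to 0.26, Cdh16 from −0.19 to 0.024 and Nudel-pending from −0.015 to 0.31. Other probes gave −0.033 for Col8a1, −0.084 for Acta2 and 0.14 for Abca3, and scaling to the 75th percentile gave −0.29 for Sftpc. Probes not above background limit what can be tested.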
